A study of Mus musculus with 106 samples.

Results

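Subcutaneous and visceral fat of the same mouse strain were compared at room temperature: inguinal subcutaneous adipose tissue (ingSAT), which lies under the skin of the groin, and perigonadal visceral adipose tissue (pgVAT), which in males lies along the epididymis inside the abdominal cavity. The members were all bulk RNA sequencing libraries of these tissues that the titles place at room temperature, 3 of ingSAT and 3 of pgVAT, 6 of the 106 samples of the series, all marked as re-used in their titles. They come from a single table of 8 tissues and were compared across all genes, with transcripts of the epididymis set aside. The mice were wild-type males of strain C57BL/6 in the labels and C57BL/6J in the methods, labelled as 11 weeks old and 8 weeks old when the study began, and were kept at 22 °C as controls for a cold group. According to the methods each library held RNA of 2 pooled mice, 6 mice per group. The cold group, used below as a separate set of mice, spent 5 days at 18 °C, then 5 days at 14 °C, and stayed at 10 °C for the last 2 weeks. The treatment protocol in the labels names 34 °C for every sample, so the temperatures here are those of the titles and the methods. No label says whether an ingSAT and a pgVAT library came from the same mice.

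Fat depots differ in embryonic origin, in the cells that surround the adipocytes and in the hormones they release. Cells of each body region keep a record of their position in the expression of homeobox and T-box transcription factors, and adipocyte precursors of different depots carry different sets of these factors. Visceral fat is also covered by mesothelium, the flat epithelium that lines the body cavities, whereas subcutaneous fat borders muscle, skin and, in the groin, a lymph node. In males the perigonadal pad is attached to the epididymis, the duct in which sperm mature.

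The 6 libraries held between 4262403 and 23789328 counts, and levels are given as CPM, counts relative to the total of the library after TMM scaling, with libraries in the order 1, 2 and 3. Adipoq and the other adipocyte markers were abundant in all 6, with a summed level of 68430, 80580 and 76290 CPM in ingSAT and 75560, 102900 and 67620 CPM in pgVAT for 20 genes. Library 3 of pgVAT stood apart: it had the smallest total, and 397 of 21647 genes were at least 5-fold above both other pgVAT libraries there (0.5 CPM added), against 3 to 40 genes for each of the other 5 libraries. Library 3 of ingSAT had the lowest collagen level, 6839 CPM for 44 genes against 33840 and 23450 CPM in the others. Where a count of calls is followed by 6 numbers, these are the counts with ingSAT library 1, 2 or 3 or pgVAT library 1, 2 or 3 left out, in that order. Levels joined by against give ingSAT first.

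Of 14643 genes tested, 500 were higher in ingSAT and 799 higher in pgVAT at an adjusted p under 0.05 and a fold above 1.5, together 8.87% of the genes (3.41% and 5.46%). In all of these called genes the 3 libraries of a depot lay on one side of the 3 of the other, against 12.1% and 14.1% of all genes tested that were higher in ingSAT or in pgVAT without overlap. The median log2 fold change over all genes tested, ingSAT minus pgVAT, was -0.035. For each list below, 3.41% and 5.46% are the shares of all genes called higher in ingSAT and in pgVAT. With each library left out, the ingSAT calls numbered 277, 211, 570, 246, 150 and 451, and the pgVAT calls 448, 484, 604, 586, 450 and 659.

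Transcripts of 3 neighbouring tissues moved with the depot. The list of 105 epididymis and accessory gland genes summed to 3.31, 5.73 and 6.24 CPM in ingSAT and 3417, 1963 and 2170 CPM in pgVAT, so that the 2 depots were more than 2 orders of magnitude apart. Of the 59 genes of this list that were tested, 37 were called higher in pgVAT (31, 31, 30, 50, 28 and 33) and none higher in ingSAT, and 44 had no count in any ingSAT library. Their make-up differed between the libraries: Crisp1, a secreted epididymal protein, stood at 2540, 640 and 115 CPM, whereas Gpx5, an epididymal glutathione peroxidase, stood at 1.45, 50 and 383 CPM and was not called (adjusted p = 0.0655). Spink8, a protease inhibitor (316, 99.9 and 61.9 CPM), and Adam7, a membrane protein of epididymal cells (66.4, 233 and 248 CPM), had no count in ingSAT, and their pgVAT levels were at least 3180-fold and 1620-fold higher than the level of 3 counts over the group.

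Skeletal muscle and lymphocyte genes moved the other way. The 20 muscle genes summed to 3732, 3818 and 1682 CPM in ingSAT and 157, 104 and 260 CPM in pgVAT, and 16 of the 19 tested were called higher in ingSAT (15, 15, 15, 14, 10 and 17). Myh4, the myosin of fast glycolytic fibres, was at 1160, 1160 and 353 CPM in ingSAT and 0.165, 2.39 and 33.4 CPM in pgVAT. The 27 genes of lymph node lymphocytes summed to 211, 339 and 734 CPM in ingSAT and 82.7, 71 and 91.5 CPM in pgVAT, and 17 of 26 were called higher in ingSAT (23, 13, 14, 9, 8 and 14). The exact permutation test of each of these 3 sums gave p = 0.1, the smallest value that 3 against 3 libraries allow. In whole tissue, fewer cells of a type and less RNA per cell cannot be told apart.

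**Figure D1:**
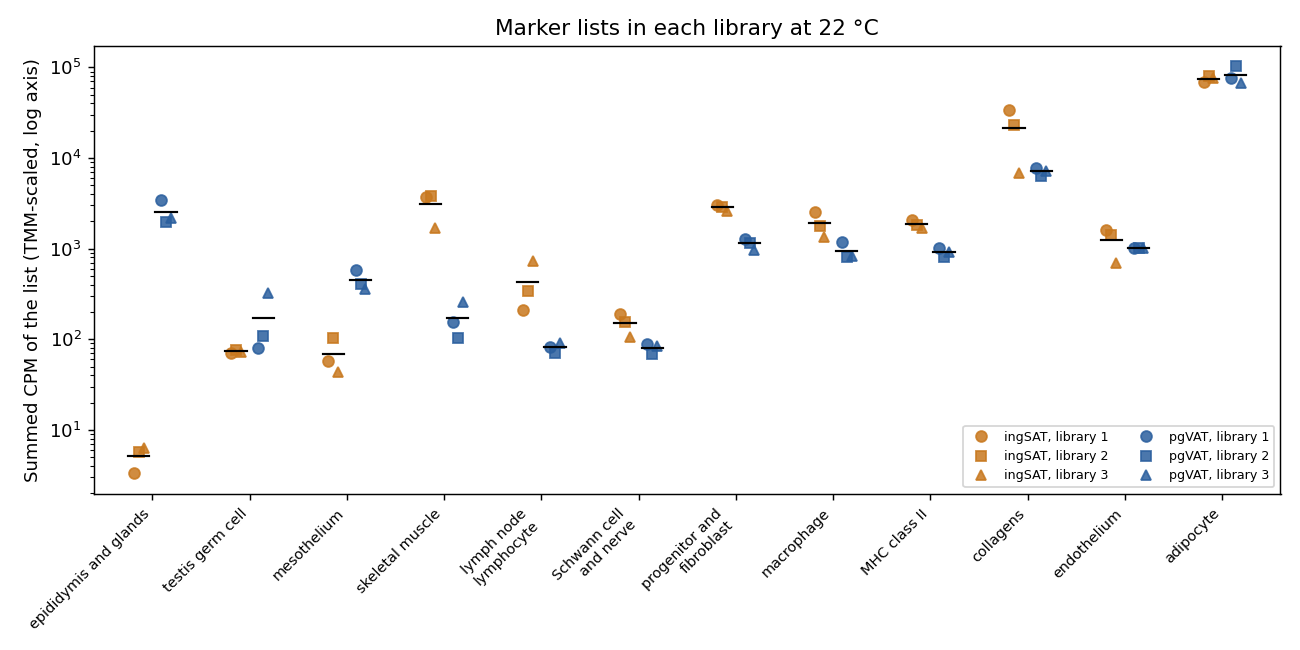
Summed CPM of 12 gene lists (horizontal axis) in each of the 6 libraries at 22 °C, on a log axis, with a bar at the mean of each depot. The epididymis list is at 1963 to 3417 CPM in pgVAT and under 7 CPM in ingSAT, the muscle list is at 1682 to 3818 CPM in ingSAT and under 261 CPM in pgVAT, and the adipocyte list overlaps between depots.

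Genes of such neighbouring tissues were marked with other libraries. At 10 °C the epididymis list was at 54710, 17 and 74910 CPM in the 3 pgVAT libraries, so 1053 genes that were at least 5-fold higher in libraries 1 and 3 than in library 2 are called epididymis-associated here. In the same way 46 genes went with muscle (ingSAT libraries 1 and 3 over 2 at 10 °C) and 125 with lymph node (ingSAT libraries 2 and 3 over 1). Of the 799 genes called higher in pgVAT at 22 °C, 364 (45.6%) were epididymis-associated or, in 37 cases, also in the list, which left 435 outside both. Of the 500 called higher in ingSAT, 60 went with lymph node, 33 with muscle and 9 with the epididymis, which left 403 outside all of these, since some genes were in more than 1 set. The 403 had a median fold of 2.8, with 37 above 10-fold, and the 435 a median fold of 4.86, with 124 above 10-fold. Both groups remained mixed. Among the 435 were cilia genes such as Cfap61 (log2 fold change -9.44) and Dnah10 (-4.51). Among the 403 were muscle genes such as Cox6a2 (4.72) and Actn2 (3.49), and the gut gene Reg3b (7.31). The source of these transcripts was not tested. With the list and the epididymis-associated genes removed before scaling, 438 genes were called higher in ingSAT and 433 in pgVAT. These sets were chosen after the values were seen.

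The genes with the largest differences were mostly in these sets. Of the 15 called genes with the largest fold in favour of pgVAT, outside the epididymis list and above an average of 2 log2 CPM, 12 were epididymis-associated: Serpina1f, Akr1b7, Ces5a, Dnah5, Prm2, Cwh43, BC048679, Ly6f, Cfap65, Npy, Spint3 and Lrp2. The other three were Wt1, Upk3b and Sntn. Lrp2, the endocytic receptor megalin, was at 110, 123 and 99.5 CPM in pgVAT and 0.189, 0.0707 and 0.134 CPM in ingSAT (log2 fold change -9.67 ± 0.29, adjusted p = 1.22e-05). Akr1b7, an aldo-keto reductase, was at 5740, 3.23 and 91.5 CPM, so that nearly all of its signal was in library 1 of pgVAT. Dnah5, a dynein heavy chain of motile cilia, had no count in ingSAT and 22.3, 26.2 and 36.9 CPM in pgVAT, at least 329-fold higher, and Cfap65, a protein of sperm flagella and cilia, was at 13.9, 29.6 and 58.6 CPM.

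Sntn, a protein of the tip of cilia, was not in the epididymis-associated set. It was at 3.81, 19.8 and 8.18 CPM in pgVAT at 22 °C and 7.08, 0 and 1.85 CPM at 10 °C. Prm2, a sperm protamine, was at 2.48, 5.89 and 60.8 CPM in pgVAT and had no count in ingSAT. Of 13 testis germ cell genes tested, 7 were called higher in pgVAT (0, 0, 0, 9, 2 and 1) and none higher in ingSAT, and their sum was 80.9, 108 and 326 CPM in pgVAT and 69.9, 76.8 and 73.3 CPM in ingSAT. Of 20 general epithelium genes tested, 9 were called higher in pgVAT (4, 15, 5, 4, 5 and 5), among them Pax8 (50.5, 22.7 and 25 CPM) and Pax2 (7.9, 2.1 and 5.97 CPM), transcription factors of the urogenital ducts. Of the 20 epithelium genes 18 were epididymis-associated, Pax8 and Pax2 among them, as were 9 of the 13 germ cell genes. With such genes removed, 1 epithelium gene and no germ cell gene was called higher in pgVAT.

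Of the 15 genes chosen in the same way for ingSAT, 10 went with muscle: Myh4, Pvalb, Tnnt3, Myh1, Myoz1, Eef1a2, Ampd1, Tnni2, Cacna1s and Klhl31. The others included Tbx15, Il1r2, Mmp3 and Reg3b. Reg3b, an antibacterial lectin of the gut, was at 2.74, 27.2 and 4.63 CPM in ingSAT and 0, 0 and 0.442 CPM in pgVAT, a call that ended without ingSAT library 2 or any 1 pgVAT library, and its relative Reg3g was at 1.23, 12.2 and 1.88 against 0.0827, 0.14 and 0 CPM. Most of this signal lay in library 2 of ingSAT. Defa24, a defensin of Paneth cells, and Fabp2, the intestinal fatty acid binding protein, were highest in the same ingSAT library, at 1.04, 11.5 and 1.34 CPM and 0.757, 4.67 and 2.22 CPM, and in the ileum libraries of the same table they stood at 4500 to 4820 and 1820 to 2550 CPM before TMM scaling. The part of gut transcripts in the Reg3b difference was not tested.

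Some T-box and homeobox factors were among the genes called in each direction. Of 39 positional transcription factors tested, 8 were called higher in ingSAT (6, 4, 7, 5, 6 and 10) and 14 higher in pgVAT (9, 10, 11, 10, 10 and 12), against 3.41% and 5.46% of all genes, and 17 were not called. Tbx15, a T-box factor of trunk mesenchyme at chr3:99240381-99354259, was at 33.6, 34.5 and 28.5 CPM in ingSAT and 0.414, 0.14 and 1.11 CPM in pgVAT. Every ingSAT library was more than an order of magnitude above every pgVAT library. Tbx15 was 68.1-fold higher in ingSAT (log2 fold change 6.09 ± 0.42, adjusted p = 0.000513), and leaving out any single library kept its adjusted p at or below 0.00515. Interscapular brown fat of the same strain, in the same table, held 18.8 to 33.4 CPM before TMM scaling, near the 29.9 to 33.7 CPM of ingSAT.

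Shox2, a homeobox factor of the limb and heart at chr3:66971727-66981771, was at 23.6, 19.2 and 31 CPM in ingSAT and 0.455, 1.12 and 1.99 CPM in pgVAT (log2 fold change 4.68 ± 0.49, adjusted p = 0.00223). Brown fat held 1.67 to 3.06 CPM. En1, the engrailed homeobox factor of dorsal dermis and midbrain, had 120 counts in ingSAT (3.69, 3.11 and 2.48 CPM) and 2 in pgVAT, a ratio of 54.3 (95% interval 14.7 to 453). Lhx8, a LIM homeobox factor, was at 5.67, 5.59 and 5.3 CPM in ingSAT and 0.124, 0 and 0.884 CPM in pgVAT (log2 fold change 4.51 ± 0.84, adjusted p = 0.0172, not called without ingSAT library 2 or pgVAT library 1). Tbx5, Irx5, Twist1 and Prrx1 were the other factors of this list called higher in ingSAT, with log2 fold changes of 3.51, 3.78, 0.96 and 1.46. Gsc, the goosecoid homeobox factor, is not in the list and was picked after its values were seen, at 7.94, 5.66 and 5.91 CPM in ingSAT and 0.29, 0 and 0.221 CPM in pgVAT (log2 fold change 4.94 ± 0.62, adjusted p = 0.00443).

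The 14 factors higher in pgVAT included those of the coelomic lining and the visceral mesenchyme. Wt1, the Wilms tumour factor at chr2:105126529-105173616, had no count in any ingSAT library and was at 29.6, 18.4 and 20.6 CPM in pgVAT, at least 346-fold higher. Tcf21, a basic helix-loop-helix factor of visceral mesenchyme, had 1 count in ingSAT and 176 in pgVAT (5.34, 3.51 and 4.86 CPM), a ratio of 195 (95% interval 34.5 to 7730). Isl1, a LIM homeobox factor, had 2 and 167 counts (5.46, 2.67 and 3.54 CPM in pgVAT), a ratio of 92.3 (95% interval 25.2 to 769). All pgVAT libraries were above all ingSAT libraries for these factors.

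Nr2f1, an orphan nuclear receptor, was at 3.12, 3.61 and 3.36 CPM in ingSAT and 14.1, 11.6 and 12.8 CPM in pgVAT (log2 fold change -1.93 ± 0.23, adjusted p = 0.00396), and its relative Nr2f2 at 27.6, 27 and 26.4 against 61.9, 63.4 and 67.2 CPM (log2 fold change -1.25 ± 0.14, adjusted p = 0.00321). Both were present in each depot and differed in level. Foxc2 and Gata5 were low in both depots, at 2.9, 1.96 and 3.76 CPM and 2.81, 1.68 and 1.55 CPM in pgVAT and 0.851, 0.354 and 0.604 CPM and 0, 0.283 and 0 CPM in ingSAT. Smaller differences were called for Foxc1 (log2 fold change -1.88), Meis1 (-1.08), Bnc2 (-1.03) and Gata6 (-0.91). Sim1, at 7.82, 7.72 and 5.31 CPM in pgVAT and 0.378, 0.566 and 0.336 CPM in ingSAT, was epididymis-associated.

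Upstream sequence is shown for Shox2, Agt and Upk3b, a positional factor higher in ingSAT and, described further on, the angiotensin precursor and a mesothelial marker higher in pgVAT. These are the 250 bases before the transcription start in RefSeq (GRCm38.p6), 5′ to 3′ on the gene's strand: chr3:66981772-66982021, minus strand, for Shox2, chr8:124569707-124569956, minus strand, for Agt and chr5:136038246-136038495, plus strand, for Upk3b. Capitals mark matches to TATAAA, the core of the TATA box, searched on both strands. Shox2 and Agt held 1 match each, 203 and 30 bases before the start, and Upk3b none, against 12.4% of 32851 such stretches of the mouse genome with at least 1.
Shox2: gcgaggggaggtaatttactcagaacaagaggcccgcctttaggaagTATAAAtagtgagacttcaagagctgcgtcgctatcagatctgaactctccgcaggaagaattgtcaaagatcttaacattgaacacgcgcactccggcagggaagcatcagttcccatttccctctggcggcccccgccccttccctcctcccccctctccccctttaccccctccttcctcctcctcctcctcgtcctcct
Agt: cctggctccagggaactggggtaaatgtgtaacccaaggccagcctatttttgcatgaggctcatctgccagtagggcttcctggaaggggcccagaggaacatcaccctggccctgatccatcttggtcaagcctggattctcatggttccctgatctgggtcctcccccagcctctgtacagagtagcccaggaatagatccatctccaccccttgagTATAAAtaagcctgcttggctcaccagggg
Upk3b: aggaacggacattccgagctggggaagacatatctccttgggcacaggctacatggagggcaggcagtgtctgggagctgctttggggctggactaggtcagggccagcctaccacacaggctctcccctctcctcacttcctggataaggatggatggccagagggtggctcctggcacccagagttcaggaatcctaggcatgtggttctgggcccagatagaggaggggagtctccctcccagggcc

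**Figure D2:**
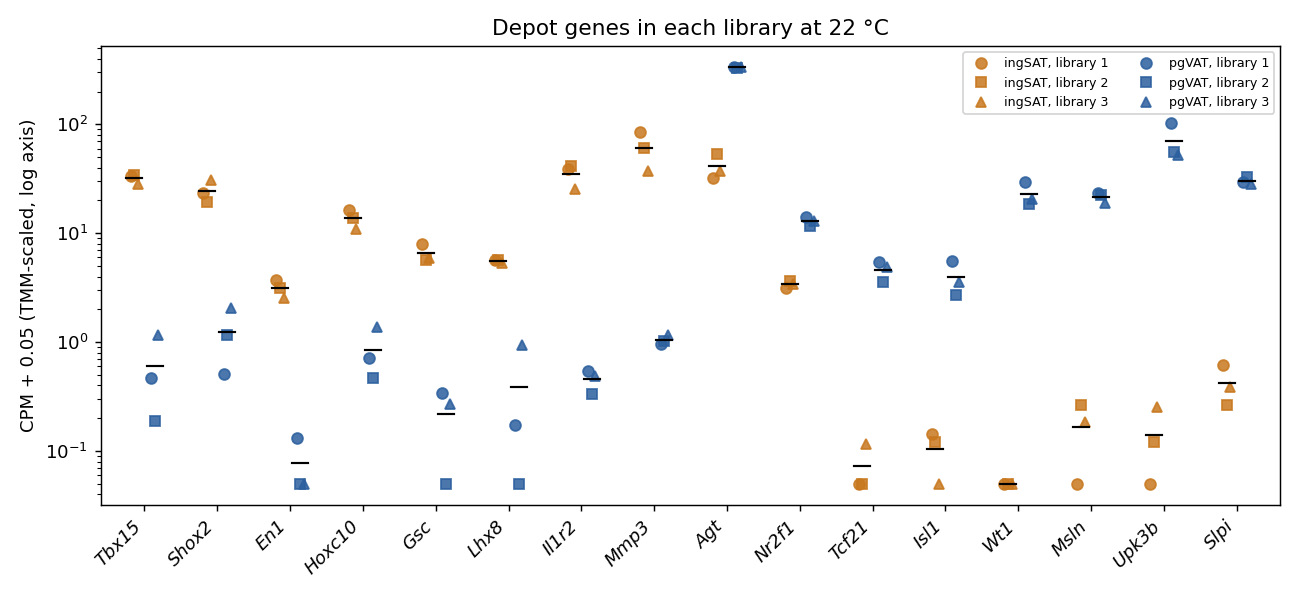
Level of 16 genes (horizontal axis) in each of the 6 libraries at 22 °C as CPM plus 0.05 on a log axis, with a bar at the mean of each depot. The 8 genes on the left, from Tbx15 to Mmp3, are higher in every ingSAT library, and the 8 on the right, from Agt to Slpi, are higher in every pgVAT library.

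Hox genes form 4 clusters, A to D, in which the paralog number follows the order along the chromosome and along the body axis, with low numbers towards the head. Of 28 Hox genes tested, 3 were called higher in ingSAT (3, 3, 3, 4, 3 and 3) and 9 higher in pgVAT (4, 5, 6, 7, 5 and 7), and the list had a median log2 fold change of -0.87 against -0.035 over all genes. The 3 were Hoxa9, Hoxc9 and Hoxc10. Hoxc10, at chr15:102966796-102971893, was at 16.3, 13.9 and 10.9 CPM in ingSAT and 0.662, 0.421 and 1.33 CPM in pgVAT (log2 fold change 4.20 ± 0.41, adjusted p = 0.00189), and in the 6 other tissues of the table at 22 °C it reached at most 0.251 CPM before scaling, in ileum. Hoxa9 was at 17.1, 28.4 and 20.9 against 6.16, 4.35 and 3.32 CPM (log2 fold change 2.21 ± 0.30, adjusted p = 0.00573), and Hoxc9 at 18.2, 18.9 and 14 against 5.09, 6.03 and 7.52 CPM (log2 fold change 1.48 ± 0.24, adjusted p = 0.0107). These 3 calls held under each library left out.

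Of 21 Hox genes with paralog numbers 1 to 8, none was called higher in ingSAT and 8 were called higher in pgVAT, with a median log2 fold change of -0.92. Of 7 with numbers 9 to 13, 3 were called higher in ingSAT and 1 higher in pgVAT, with a median of 1.48. The one called higher in pgVAT was Hoxb9, at 0.662, 0.354 and 0.873 CPM in ingSAT and 9.68, 7.86 and 6.85 CPM in pgVAT (log2 fold change -3.68 ± 0.42, adjusted p = 0.00332). Hoxa11 (log2 fold change -3.53 ± 1.28, adjusted p = 0.15) and Hoxd9 (-0.75 ± 0.44, adjusted p = 0.393) had negative values too and were not called. In cluster B, 4 of 8 genes were higher in pgVAT and none higher in ingSAT, and in cluster D 3 of 4. Hoxb6, Hoxb8, Hoxb9, Hoxd3 and Hoxd4 were epididymis-associated, and with those genes removed 4 Hox genes were called higher in pgVAT: Hoxa5, Hoxb3, Hoxc4 and Hoxd8.

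Hoxc4 was at 6.34, 6.65 and 7.18 CPM in ingSAT and 15.6, 21.3 and 19.7 CPM in pgVAT (log2 fold change -1.48 ± 0.21, adjusted p = 0.00629), and Hoxa5 at 5.67, 6.37 and 6.98 against 12.3, 13.9 and 14.4 CPM (log2 fold change -1.08 ± 0.21, adjusted p = 0.0205, not called without ingSAT library 1 or 2 or pgVAT library 2). Hoxc8 was at 43.5, 56.9 and 65 CPM in ingSAT and 78.5, 134 and 101 CPM in pgVAT, without overlap and not called (adjusted p = 0.0583). Gene models of this family overlap: the Hoxc5 model of the annotation spans Hoxc6, Hoxc8, Hoxc9 and Hoxc10, and that of Hoxa3 spans Hoxa4, Hoxa5 and Hoxa6, so a read could count for neither or either.

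**Figure D3:**
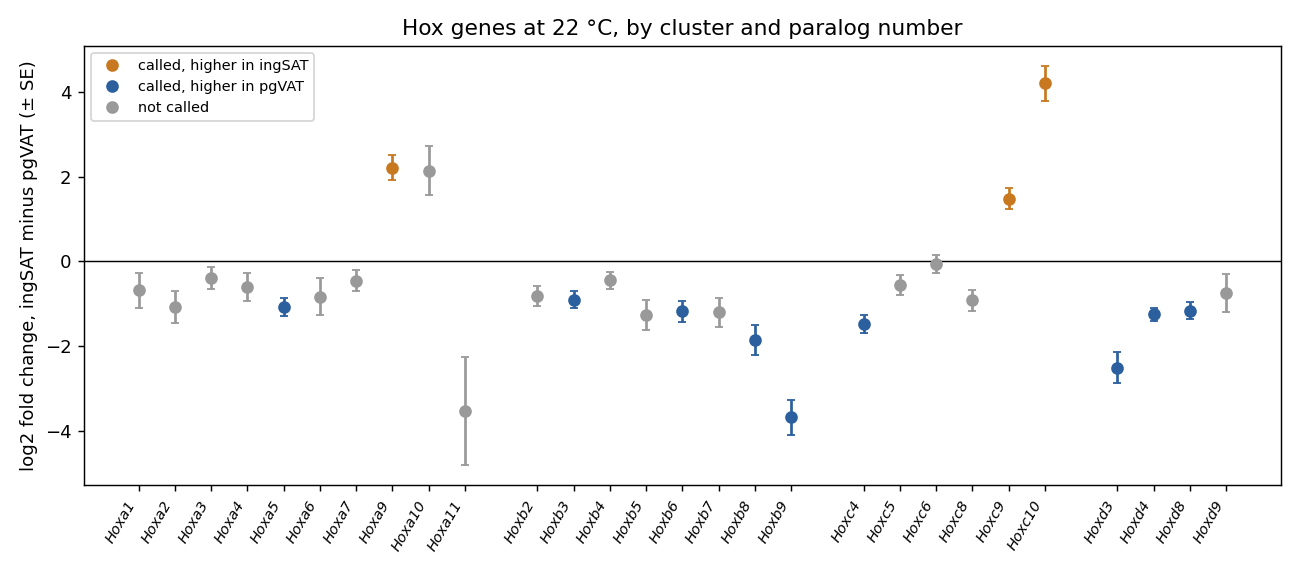
Log2 fold change of 28 Hox genes, ingSAT minus pgVAT, with bars of 1 standard error, ordered by cluster and paralog number (horizontal axis). Called genes above 0 are Hoxa9, Hoxc9 and Hoxc10, while the called genes with paralog numbers of 8 or lower all lie below 0.

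Mesothelial genes marked pgVAT. Of 16 markers, 12 were called higher in pgVAT (11, 14, 11, 10, 11 and 11) and none higher in ingSAT, with a median log2 fold change of -4.19, and their sum was 57.4, 104 and 43.2 CPM in ingSAT and 587, 410 and 359 CPM in pgVAT. Upk3b, a uroplakin of the mesothelial surface at chr5:136038496-136046487, was at 0, 0.0707 and 0.201 CPM in ingSAT and 102, 56.1 and 52.6 CPM in pgVAT (log2 fold change -9.32 ± 0.55, adjusted p = 0.000382). Msln, which encodes mesothelin, was at 0, 0.212 and 0.134 against 23.2, 22.6 and 18.8 CPM (log2 fold change -7.32 ± 0.47, adjusted p = 0.000513). Muc16, a mucin that binds mesothelin, was at 0, 3.75 and 0.604 against 81.4, 76.2 and 57 CPM (log2 fold change -5.56 ± 0.83, adjusted p = 0.00744).

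Other members with the same pattern were Upk1b, with 1 count in ingSAT and 24.5, 18.1 and 13 CPM in pgVAT, and Bnc1, a zinc finger factor, with 1 count in ingSAT and 14.4, 11.9 and 10.2 CPM in pgVAT. The ratios were 863 (95% interval 155 to 34100) and 530 (95% interval 94.6 to 21000). Only 2 of the 16 markers were epididymis-associated. In the spleen libraries of the table Upk3b was at 12.9 to 17.2 CPM and Wt1 at 25 to 27.1 CPM before TMM scaling, and in brown fat Wt1 had no count. Ileum and liver held less, with Upk3b at 1.43 to 1.81 and 2.12 to 3.25 CPM. Wt1 was at 0.077 to 0.419 CPM in ileum and 0.363 to 0.616 CPM in liver. Slpi, a secreted protease inhibitor picked after its values were seen, followed the same pattern, at 0.567, 0.212 and 0.336 CPM in ingSAT and 29.8, 32.8 and 28.3 CPM in pgVAT (log2 fold change -6.37 ± 0.32, adjusted p = 0.000314).

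Fibroblast and progenitor genes were called mostly in favour of ingSAT. Of 21 tested, 13 were higher in ingSAT (5, 5, 15, 7, 3 and 9) and 1 higher in pgVAT, and the list summed to 3048, 2890 and 2611 CPM in ingSAT and 1285, 1169 and 968 CPM in pgVAT. Wnt2, a Wnt ligand, was at 12.4, 12.2 and 3.62 CPM in ingSAT and 0.662, 0.14 and 0.221 CPM in pgVAT (log2 fold change 4.42 ± 0.69, adjusted p = 0.00858). Pi16, a marker of an interstitial progenitor, was at 320, 314 and 83 against 21.2, 19.4 and 36.9 CPM (log2 fold change 3.22 ± 0.53, adjusted p = 0.0111, not called without pgVAT library 2), and Thy1, a surface glycoprotein of fibroblasts, at 58.3, 40.7 and 26.6 against 7.36, 6.17 and 6.85 CPM (log2 fold change 2.61 ± 0.30, adjusted p = 0.00353). Levels of Pi16 and Wnt2 were lowest in library 3 of ingSAT but remained above all pgVAT libraries. Fmo2, a flavin monooxygenase listed with the progenitors, was the one higher in pgVAT, at 34.5, 29.6 and 30.4 against 106, 107 and 77.2 CPM (log2 fold change -1.62 ± 0.18, adjusted p = 0.00329).

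Collagen genes were called in both directions. Of 40 tested, Col1a1, Col1a2, Col3a1, Col5a2 and Col6a3 were higher in ingSAT, 5 in all (1, 0, 13, 0, 0 and 1), and Col4a6, Col6a5 and Col8a2 were higher in pgVAT. The shares of all genes were 3.41% and 5.46%, so the pgVAT count was near the share of all genes. The summed level overlapped between depots. Col1a1, the main chain of type I collagen, was at 4290, 2370 and 322 CPM in ingSAT and 213, 217 and 291 CPM in pgVAT (log2 fold change 3.28 ± 0.79, adjusted p = 0.0409, not called without ingSAT library 1 or 2 or any 1 pgVAT library). Library 3 of ingSAT was close to pgVAT, and 13 collagens were called higher in ingSAT without it. Col6a5, a chain of type VI collagen, was at 5.96, 3.61 and 2.62 CPM in ingSAT and 313, 190 and 113 CPM in pgVAT (log2 fold change -5.68 ± 0.49, adjusted p = 0.0011), in the opposite direction to Col6a3 (2020, 1390 and 367 against 194, 170 and 142 CPM, log2 fold change 2.90 ± 0.56, adjusted p = 0.0195, not called without ingSAT library 2 or any 1 pgVAT library).

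Of 50 other matrix genes, 7 were called higher in ingSAT (3, 3, 18, 5, 2 and 5) and 3 higher in pgVAT (1, 1, 1, 2, 1 and 3), against 3.41% and 5.46% of all genes. The pgVAT count was near the share of all genes. Mmp3, the protease stromelysin 1, was at 84.7, 60.7 and 37.2 CPM in ingSAT and 0.91, 0.982 and 1.11 CPM in pgVAT (log2 fold change 5.96 ± 0.39, adjusted p = 0.000513), and Mmp2, a gelatinase, at 399, 359 and 101 against 49.8, 25.3 and 21.9 CPM (log2 fold change 3.13 ± 0.55, adjusted p = 0.0142, not called without pgVAT library 2). Dpt, which encodes dermatopontin, was at 768, 913 and 1410 against 278, 323 and 233 CPM (log2 fold change 1.89 ± 0.28, adjusted p = 0.00762). Fmod, which encodes the collagen-binding proteoglycan fibromodulin, went the other way at 3.88, 3.54 and 1.61 against 37.6, 34 and 25.7 CPM (log2 fold change -3.45 ± 0.34, adjusted p = 0.00207), as did Adamts5 (-0.86) and Thbs1 (-2.99). Thbs1 stood at 100, 185 and 824 CPM in pgVAT, with the highest level in library 3, and was not called without any 1 ingSAT library or pgVAT library 2.

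Wnt and BMP pathway genes were called in both directions, and most were not called. Of 27 Wnt ligands, R-spondins and inhibitors tested, Wnt2, Sfrp2, Sfrp4 and Dkk2 were called higher in ingSAT, 4 in all (1, 1, 3, 2, 1 and 4), and Wnt2b and Rspo1 higher in pgVAT, 2 in all (2, 2, 2, 2, 3 and 4), against 3.41% and 5.46% of all genes, and 21 were not called. The ligand Wnt2b was at 3.97, 2.9 and 4.09 CPM in ingSAT and 26.1, 21 and 24.3 CPM in pgVAT (log2 fold change -2.70 ± 0.23, adjusted p = 0.000897), the reverse of Wnt2. Rspo1, which amplifies Wnt signals, was at 2.55, 0.99 and 0.537 against 27.6, 25.1 and 31.2 CPM (log2 fold change -4.41 ± 0.48, adjusted p = 0.0028). The inhibitor Sfrp2 was at 66.2, 84.8 and 20.9 against 13.9, 9.82 and 8.84 CPM (log2 fold change 2.37 ± 0.48, adjusted p = 0.0235, not called without ingSAT library 1 or 2 or any 1 pgVAT library). Sfrp5, another inhibitor, ran from 7.22 to 41.3 CPM in ingSAT and 6.91 to 96.2 CPM in pgVAT and was not called (adjusted p = 0.662).

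Of 32 BMP and FGF genes tested, Fst and Fstl1 were called higher in ingSAT, 2 in all (1, 0, 4, 2, 0 and 0), and 7 higher in pgVAT, among them Bmp4, Fgf1, Fgf9, Fgfr3, Fgfr4 and Nog, against the same shares of all genes, and 23 were not called. The BMP antagonist Nog, which encodes noggin, was at 0.0946, 0.212 and 0.201 CPM in ingSAT and 3.27, 4.07 and 5.97 CPM in pgVAT (log2 fold change -4.57 ± 0.55, adjusted p = 0.00381). Fst, which encodes the activin-binding follistatin, went the other way at 33.6, 28.2 and 27.1 against 15.9, 8.28 and 7.3 CPM (log2 fold change 1.45 ± 0.30, adjusted p = 0.0247, not called without ingSAT library 1 or 2 or pgVAT library 2 or 3). The activin subunit Inhba was at 0.946, 0.424 and 0.873 CPM in ingSAT and 3.64, 11.4 and 5.75 CPM in pgVAT (log2 fold change -3.19 ± 0.57, adjusted p = 0.0143, not called without pgVAT library 2).

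Among 37 adipokines and other secreted factors, 2 were called higher in ingSAT (1, 0, 5, 1, 1 and 1) and 6 higher in pgVAT (5, 3, 6, 3, 1 and 5), against 3.41% and 5.46% of all genes. With the epididymis-associated genes removed, Lcn2 among them, 5 were called higher in pgVAT. Agt, which encodes angiotensinogen, the precursor of angiotensin, at chr8:124556534-124569706, was at 32.4, 53.9 and 37.3 CPM in ingSAT and 338, 330 and 336 CPM in pgVAT, 8.12-fold higher in pgVAT (log2 fold change -3.02 ± 0.23, adjusted p = 0.000759). Its 3 pgVAT values lay within 8 CPM of each other, and liver, the main source of the protein in blood, held 466 to 528 CPM before scaling. Lep, the leptin gene, ran from 179 to 984 CPM in ingSAT and from 808 to 1890 CPM in pgVAT and was not called (log2 fold change -1.14 ± 0.58, adjusted p = 0.317). Adipoq (log2 fold change -0.10 ± 0.28, adjusted p = 0.898) and Retn (log2 fold change -0.48 ± 0.25, adjusted p = 0.329), the genes of adiponectin and resistin, were not called either, and their depots overlapped.

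Few genes of adipocyte metabolism passed the test. Of 20 adipocyte markers, 1 was called: Acsl1, a long-chain acyl-CoA synthetase, higher in ingSAT (log2 fold change 1.05 ± 0.25, adjusted p = 0.0388, not called without ingSAT library 1 or 2 or any 1 pgVAT library). None of 30 genes of triglyceride synthesis, lipolysis and lipid droplets was called with the edgeR quasi-likelihood test, against 6 whose p before adjustment was at most 0.05 and 4 with DESeq2, and without ingSAT library 3 there were 4. Of 82 respiratory chain subunits, 1 was called, Cox6a2, the muscle form of a cytochrome oxidase subunit. Among 21 genes of de novo lipogenesis, Acss2, an acetyl-CoA synthetase, was called higher in ingSAT (546, 419 and 155 against 135, 99.2 and 114 CPM, not called without ingSAT library 1 or 2 or any 1 pgVAT library), and Fads2, a fatty acid desaturase that was epididymis-associated, was called higher in pgVAT. Without ingSAT library 3, 9 genes of the lipogenesis list were called higher in ingSAT and none higher in pgVAT. With DESeq2, 7 were called higher in ingSAT and 1 higher in pgVAT. The list had 15 positive and 6 negative log2 fold changes, with a median of 0.615 against -0.035 over all genes. None of 18 immediate early and heat shock genes was called with the edgeR test, while 2 had a p of at most 0.05 before adjustment and 2 were called with DESeq2.

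The calls among genes of brown and beige fat changed with library 3 of pgVAT. Of 27 tested, Prdm16, a co-regulator of brown adipocyte fate (25, 21.4 and 18.7 against 7.07, 8.28 and 9.07 CPM, log2 fold change 1.43 ± 0.21, adjusted p = 0.00683), Slc36a2, an amino acid transporter (260, 216 and 162 against 95.3, 78.7 and 83.8 CPM), and Lhx8 were called higher in ingSAT. Ucp1, the uncoupling protein of brown fat, was at 15.4, 6.79 and 2.55 CPM in ingSAT and 1.2, 3.79 and 313 CPM in pgVAT, so that library 3 of pgVAT was above every other library of either depot. Cidea, a lipid droplet protein of brown fat, was at 98.1, 100 and 58.3 against 1.78, 5.05 and 71 CPM (log2 fold change 1.81 ± 1.10, adjusted p = 0.414), Elovl3, a fatty acid elongase, at 1.32, 0.707 and 0.134 against 0.0414, 0.281 and 21.7 CPM, and Cox7a1, a cytochrome oxidase subunit, at 9.46, 11.7 and 8.86 against 2.11, 4.77 and 30.5 CPM. Without that library 10 genes of the list were called higher in ingSAT, Cidea among them, and the fold change of Ucp1 turned from -3.68 to 1.85 on the log2 scale without passing the test in either fit.

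Antigen presentation and macrophage genes that passed the test were higher in ingSAT. Of 10 MHC class II genes, which present antigen to helper T cells, 6 were called higher in ingSAT (3, 3, 5, 3, 0 and 3), with H2-Ab1 at 375, 318 and 242 CPM in ingSAT and 157, 118 and 128 CPM in pgVAT (log2 fold change 1.21 ± 0.22, adjusted p = 0.0163, not called without ingSAT library 1 or 2 or pgVAT library 2) and the transactivator Ciita at 52.9, 48 and 70.9 against 19, 18.4 and 28.1 CPM (log2 fold change 1.41 ± 0.23, adjusted p = 0.0116, not called without pgVAT library 2). Of 20 macrophage genes, 4 were called higher in ingSAT (2, 1, 7, 5, 1 and 1), among them the scavenger receptor Cd163 (184, 176 and 131 against 77.9, 50 and 61 CPM, log2 fold change 1.38 ± 0.22, adjusted p = 0.0106) and Timd4, a phosphatidylserine receptor (8.7, 11.5 and 16.2 against 5.38, 3.65 and 2.21 CPM, not called without ingSAT library 2 or 3 or pgVAT library 2 or 3). The lymphocyte list moved with the same depot, as given above. Of the 10 class II genes 3 went with lymph node, among them H2-Ob, which was called. The part of lymphocytes in the class II difference was not tested.

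Il1r2, the decoy receptor that binds interleukin 1, was at 39.2, 41.2 and 25.2 CPM in ingSAT and 0.496, 0.281 and 0.442 CPM in pgVAT, 79.2-fold higher in ingSAT (log2 fold change 6.31 ± 0.34, adjusted p = 0.000372), and in no other tissue of the table at 22 °C did it exceed 4.25 CPM before scaling. Of 25 complement genes, C4b and Cd55 were called higher in ingSAT, 2 in all (1, 1, 9, 0, 0 and 1), and C6 and Cfi higher in pgVAT, against 3.41% and 5.46% of all genes. Cfi was epididymis-associated, and with such genes removed 1 complement gene was called higher in pgVAT. Of 12 Schwann cell and nerve genes, 4 were called higher in ingSAT (1, 1, 4, 2, 1 and 3). Of 16 endothelial genes, Prox1, the factor of lymphatic endothelium, was called higher in pgVAT (-1.57), a call that ended without any 1 of the 6 libraries, and of 5 skin and mammary epithelium genes tested Dsc3, which went with the lymph node set, was called higher in ingSAT, not called without any 1 ingSAT library or pgVAT library 1 or 2. Without ingSAT library 3, in which the endothelial list was lowest, 5 endothelial genes were called higher in ingSAT.

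Among 21 retinoid genes, Adh7 was called higher in ingSAT and 5 higher in pgVAT (2, 1, 3, 1, 2 and 5), among them Aldh1a1, Aldh1a2, Rarres1 and Rdh16. With the epididymis-associated genes removed, Rdh16 among them, 3 were called higher in pgVAT. The shares of all genes were 3.41% and 5.46%. Aldh1a2, the enzyme that makes retinoic acid in the embryo, was at 4.82, 3.61 and 2.95 CPM in ingSAT and 17.7, 8.42 and 9.95 CPM in pgVAT (log2 fold change -1.69 ± 0.36, adjusted p = 0.0277, not called without ingSAT library 2 or 3 or pgVAT library 1). Among 22 steroid genes, Akr1c18, which inactivates progesterone, was called higher in ingSAT (6.43, 6.79 and 8.66 against 1.03, 0.14 and 0.221 CPM, log2 fold change 3.60 ± 0.60, adjusted p = 0.0116). Sult1e1, the oestrogen sulfotransferase, was called higher in pgVAT (16.3, 14.5 and 38.7 against 166, 124 and 59.9 CPM, log2 fold change -2.34 ± 0.48, adjusted p = 0.0241, not called without ingSAT library 1 or 2 or pgVAT library 1 or 2), as were Akr1b7 and Srd5a2, both epididymis-associated, 3 in all (1, 1, 2, 2, 2 and 3).

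The libraries at 10 °C, from other mice, gave a second look at the same depots. There 187 of 14776 genes (1.27%) were called, 96 higher in ingSAT (0.65%) and 91 higher in pgVAT (0.616%). Without pgVAT library 2 of that group there were 1513 and 2517, and with any other library left out at most 140 and 31. With the epididymis list and the epididymis-associated genes removed before scaling, 356 and 320 were called. Of the 403 genes called higher in ingSAT at 22 °C outside the 3 sets, 389 were tested at 10 °C, 373 had the same direction, and in 234 (60.2%) the 3 libraries of each depot did not overlap, against 14.6% of all genes. Of the 435 called higher in pgVAT outside the sets, 399 were tested, 391 had the same direction and 258 (64.7%) did not overlap, against 14.5% of all genes. The sets had been marked with these same libraries, which bears on the last shares. No share of all genes was taken for the counts of same direction. Both groups still held muscle, gut or cilia genes, as given above. Over all genes called at 22 °C, sets included, 285 of 486 (58.6%) and 347 of 763 (45.5%) did not overlap in the same direction at 10 °C.

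**Figure D4:**
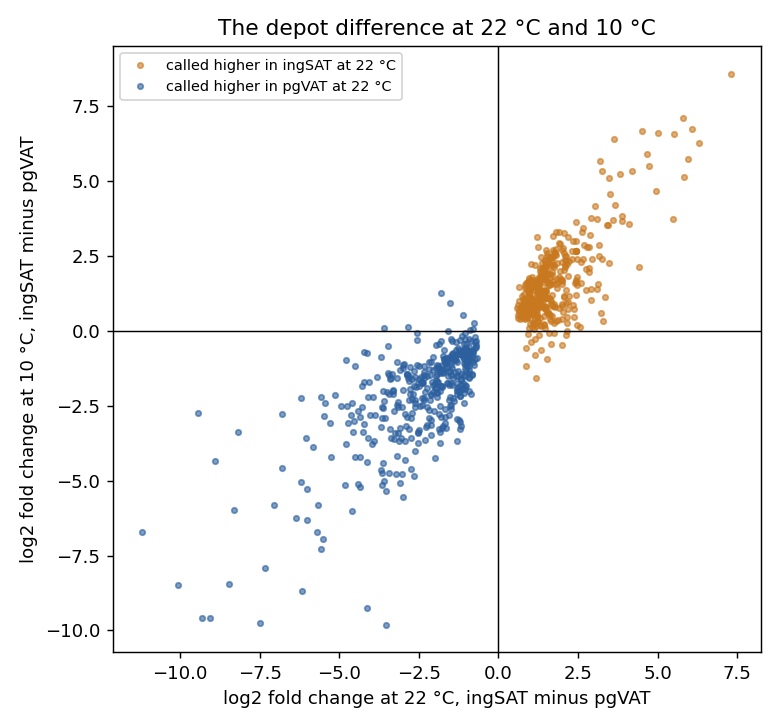
Log2 fold change, ingSAT minus pgVAT, at 22 °C (horizontal axis) and 10 °C (vertical axis) of the genes called at 22 °C outside the epididymis list and the 3 sets, 1 point a gene. Of 389 ingSAT genes, 373 lie above 0 at 10 °C, and of 399 pgVAT genes, 391 lie below 0.

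The pgVAT library 2 at 10 °C held 17 CPM of the epididymis list, the lowest level of the 3. Wt1 was at 13, 26.1 and 11.3 CPM in the 3 pgVAT libraries at 10 °C, Upk3b at 56.7, 129 and 61.7 CPM and Agt at 114, 438 and 176 CPM, so that library 2 was the highest in each case. All 12 mesothelial markers called at 22 °C were higher in that library than in each ingSAT library at 10 °C, as were 13 of the 14 positional factors and 7 of the 9 Hox genes called higher in pgVAT, against 36.3% of all genes tested at 22 °C. Of the 435 genes called higher in pgVAT outside the sets, 305 (70.1%) were higher there too. The Hox share (77.8%) was near that of these called genes. The epididymis-associated set had been marked with this same library, which bears on the 70.1%.

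The depot difference at 10 °C was also compared with that at 22 °C. Of 14793 genes, the interaction of depot and temperature was called in none (0%) with the edgeR quasi-likelihood test, in 1536 at an unadjusted p under 0.05, and in 112 with DESeq2. Tbx15 was at 27.4, 16.8 and 23.5 CPM in ingSAT and 0.191, 0.28 and 0.143 CPM in pgVAT at 10 °C, and Hoxc10 at 16.5, 11.6 and 13.9 against 0.239, 0.559 and 0.214 CPM. Of 21 fibroblast and progenitor genes tested at 10 °C, none was called higher in ingSAT and 1 higher in pgVAT, against 0.65% and 0.616% of all genes. The sums of this list overlapped there, at 1968, 1464 and 1571 against 1076, 1570 and 1483 CPM. Log2 fold changes at 10 °C were 2.13 for Wnt2, 0.59 for Pi16, 1.6 for Thy1, -1.73 for Fmo2 and 0.32 for Col1a1. Ucp1 was at 1100, 1570 and 1260 CPM in ingSAT and 8.04, 2.87 and 4.63 CPM in pgVAT at 10 °C, so that the depots did not overlap there (interaction log2 11.61, adjusted p = 0.369). Without pgVAT library 2 at 10 °C, the one with few epididymis transcripts, 246 and 631 genes passed the test of the interaction.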

How the data were processed

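Total RNA of ingSAT and pgVAT was sequenced on a HiSeq 2000 from libraries made with a NEBNext Ultra kit. The authors deposited raw whole-number read counts per gene for 21647 genes, and per the submitters' processing notes the reads were aligned to mm10 with STAR 2.5.3a and counted with HTSeq 0.6p1, and Picard 1.141 is named too. Whether counting used strand is not given in the sources used here, so overlapping gene models and near-identical families (Defb, H2-, Myh1, Myh2 and Myh4, Reg3b and Reg3g) are uncertain.

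Libraries were grouped by the tissue and temperature in their titles. The test covered genes whose average log2 CPM exceeded 0 in the 6 libraries at 22 °C and used TMM scaling and edgeR's quasi-likelihood test (edgeR 4.0.16, R 4.3.3) with Benjamini-Hochberg adjustment over all genes tested. A gene was called at an adjusted p under 0.05 and a fold above 1.5. Fold changes are ingSAT minus pgVAT on the log2 scale, with standard errors. The study's exact test was an alternative. The same test was run at 10 °C and, over 12 libraries, for the interaction. No library was a copy of another. Each library is a pool of 2 mice, so p-values measure the spread among such pools. Libraries held 4262403 to 23789328 counts. A gene with no count in a group was set at 3 counts over the group for a lower bound on the fold, and genes with 1 to 3 counts are given as a ratio of summed counts with a 95% exact interval, which covers counting error only. A gene was associated with epididymis, muscle or lymph node when each of the libraries named was at least 5-fold above the remaining one (0.5 CPM added) and at 1 CPM or more. Sums of lists were compared with a two-sided exact permutation test.

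The members and all 28 gene lists were chosen with earlier results of these data known. The rule named up to 3 called genes per direction and list with the largest fold, 15 called genes per depot outside the epididymis list without overlap and with an average log2 CPM above 2, and Tbx15, Shox2, En1, Hoxc8, Hoxc9, Hoxc10, Hoxa5, Nr2f1, Tcf21, Wt1, Msln, Upk3b, Lep, Adipoq, Retn, Ucp1, Cidea, Sfrp2, Sfrp5 and Agt. Muc16, Crisp1, Gpx5, Pi16, Col1a1, Mmp2, Cd163, Timd4, Elovl3, Cox7a1, Reg3g, Defa24, Fabp2 and the remaining Hox genes and positional factors were picked after their values were seen, and genes given by name alone are called members of their list. Some genes that the rule names are not reported here. Positions are from GENCODE M21 and upstream sequences from RefSeq, both GRCm38. The scripts were tested on simulated counts. Alternatives were another scaling, tool, filter or call rule, removal of the epididymis genes, a replicate block, 12 libraries in 1 fit and each library left out.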

Additional observations from a re-analysis of the deposited data

How the results depend on the processing

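At 22 °C, 500 genes were called higher in ingSAT and 799 in pgVAT. These counts were 832 and 1222 with edgeR's exact test, 849 and 1204 with DESeq2, 111 and 204 with 12 libraries in 1 fit, and 1182 and 1658 with p left unadjusted and the same fold limit. With each library left out in turn they ran from 150 to 570 and from 448 to 659. Removal of the epididymis genes, an alternative chosen after seeing the data, gave 438 and 433, of which 437 and 428 were called before. At 10 °C the 96 and 91 calls became 189 and 119 with library sizes only, 863 and 1331 with the exact test, 1120 and 1673 with DESeq2, 179 and 189 with filterByExpr, 356 and 320 without the epididymis genes, 1092 and 1659 with 12 libraries in 1 fit, 1442 and 2154 with p left unadjusted, and 10 to 1513 and 3 to 2517 with a library left out. The interaction, called in no gene, was called in 81 genes with a positive and 31 with a negative term with DESeq2, and in 0 to 246 and 0 to 631 with a library left out. The causes were not tested. Library sizes only, other filters and no fold limit kept the 22 °C counts within 1.5 times.

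Deviations of same-numbered ingSAT and pgVAT libraries at 22 °C correlated at 0.116, -0.119 and -0.118. Those of differently numbered libraries ran from -0.232 to 0.266. With so few libraries, these values cannot show whether same-numbered libraries came from the same mice. With a replicate block 380 and 685 genes were called at 22 °C, 332 and 583 of them shared, against 75 and 200 at 10 °C and none for the interaction. Of 153 named genes called at 22 °C none changed direction and 56 kept their call under every alternative. Calls were lost in 82 with 12 libraries in 1 fit, in 29 with the replicate block and in 25 to 54 with a library left out. Uncalled genes changed sign (log2 fold changes): Ucp1 went to 0.01 with the replicate block and ran from -4.48 to 1.85 with a library left out, Cox7a1 went to 0.58 and ran from -0.79 to 1.64, Sfrp5 ran from -2.37 to 0.91 and Adipoq from -0.27 to 0.10. For Ucp1, Cox7a1 and Sfrp5 the sign changed without pgVAT library 3, and for Adipoq without ingSAT library 1 (0.01) or pgVAT library 2. Depth of pgVAT library 3, the smallest, limits what its low genes can show. That library nevertheless had a count for 19287 genes, the most of the 6 libraries.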
